A study of Mus musculus with 6 samples.

Results

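Matricellular and adhesive matrix genes were followed in mouse podocytes exposed to high glucose (HG) with or without FGF1. The 10 members were *Spp1*, *Cd44*, *Thbs1*, *Thbs2*, *Sparc*, *Tnc*, *Fn1*, *Postn*, *Col1a1* and *Col1a2*, picked by gene symbol from the 24469 loci of the RNA-Seq table. Each symbol matched 1 locus. The genes had been listed with results of these libraries already known, so their p-values describe changes that had been seen before and are not independent evidence.

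The cells were MPCs, a conditionally immortalized mouse podocyte line grown on plates coated with collagen I and differentiated for 10 days without interferon gamma. All groups were starved of serum for 12 h and then held in 25 mM glucose for 12 h. The HG group received no pretreatment, whereas the other groups received 100 ng/mL of rFGF1WT, the recombinant wild-type growth factor, or of rFGF1ΔHBS for 1 h before HG. rFGF1ΔHBS carries mutations in the heparan sulfate binding site and acts as a partial agonist. Each group had 2 libraries, and both comparisons with HG used the same HG libraries. The labels do not say that replicates came from separate cultures, so the p-values measure the spread between these libraries only, which may be technical. Because no group at normal glucose was analysed here, the effect of HG on these genes is not described.

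Matricellular proteins are secreted into the extracellular matrix but serve mainly to signal to cells, through integrins, CD44, syndecans and other receptors, rather than to bear load. Fibronectin and type I collagen are the adhesive and fibrillar scaffold that these proteins bind. In the kidney, matrix proteins of both kinds accumulate in the glomerulus during diabetic disease, and podocytes adhere to the glomerular basement membrane through integrins.

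Levels are given as FPKM, a fragment number scaled for transcript length and for the mapped total of each library, so that genes of different length can be ranked. Changes were tested with limma on log2(FPKM + 1) over the 10562 loci with a mean of at least 1 FPKM, and a gene was called at a Benjamini-Hochberg adjusted p under 0.05. A log2 fold change below is on this log2(FPKM + 1) scale, which understates changes of low genes. FPKM carry no read totals, but 23.5% to 25.1% of low values lay on steps. These put the depths of the 6 libraries at 0.971 to 1.01 of the first HG library, within limits set by the search. For scale, *Thbs2*, the locus with a single transcript (5895 bases), would hold about 59 to 93 fragments per library if a step is 1 fragment.

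With either protein, *Spp1*, *Thbs1* and *Fn1* rose above HG, and *Tnc* fell with rFGF1WT. In the main fit *Spp1* was the only member that changed by at least 2-fold, the limit the study set. With rFGF1ΔHBS *Cd44* came near this limit, at 1.97 times the HG mean, and passed it in some alternative fits. *Cd44* was higher in all 4 FGF1 libraries but its HG libraries lay far apart and it was not called. *Sparc* and *Col1a1* did not pass the test, and *Col1a2*, *Thbs2* and *Postn*, with a mean under 1 FPKM, were not tested in the main fit. Thus 4 of the 7 tested members were called with rFGF1WT (3 higher and 1 lower), where 6.19% of all tested loci were called, 3.26% higher and 2.94% lower. With rFGF1ΔHBS 3 of 7 were called, all higher, where 6.26% of loci were called, 3.37% higher and 2.89% lower. Past the 2-fold limit as well, 1 member was called in each comparison, beside 1.01% and 0.899% of all loci. No inference is drawn from these shares, since the members were chosen with the comparisons known.

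**Figure D1:**
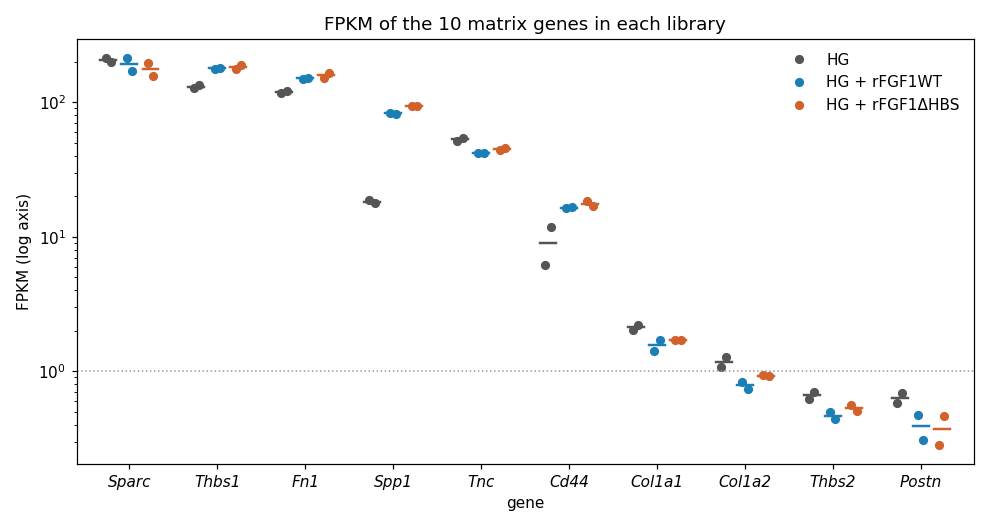
FPKM of the 10 members in each library, on a log axis, with points for HG, HG+rFGF1WT and HG+rFGF1ΔHBS, a short line at each group mean and a dotted line at 1 FPKM. *Spp1* moves from 17.8 to 18.7 FPKM in HG to 81.8 to 94.0 with FGF1, whereas *Sparc*, the member with the highest mean over all 6 libraries, overlaps between HG and rFGF1WT.

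The members spanned a wide range of levels. *Sparc*, *Thbs1* and *Fn1* ranked 64, 90 and 121 among all 24469 loci by mean FPKM, and *Spp1* and *Tnc* ranked 409 and 666. *Cd44* ranked 3164, *Col1a1* 9570, *Col1a2* 10626, *Thbs2* 11425 and *Postn* 11690, so the mRNAs of type I collagen were scarce in these cells. *Thbs2* and *Postn* were neighbours in this order and overlapped in HG, at 0.626 and 0.707 against 0.586 and 0.687 FPKM. *Tnc* lay above *Spp1* in both HG libraries and below it in all 4 FGF1 libraries.

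*Spp1* encodes osteopontin, a secreted phosphoprotein that binds αv integrins and CD44. It lies on the forward strand at chr5:104435118-104441050 (GRCm38), with up to 8 exons, and its locus in the table is merged with *Gm42793*, an unclassified transcript on the same strand, so the fragments of both are in its value. Because *Spp1* carried the largest change of the members and *Tnc* a change in the other direction, the bases before the start of both are shown here from RefSeq (GRCm38.p6), 250 bases each on the strand of the gene. The *Spp1* sequence is chr5:104434861-104435110 and that of *Tnc*, on the reverse strand, is chr4:64047016-64047265. Capitals mark the only match to the ETS letters CCGGAA, read on both strands. It begins 233 bases before the *Spp1* start shown and reads CCGGAA on the strand opposite to the gene. RefSeq also gave another start for each gene, whose bases are not shown. The window around the other *Spp1* start, chr5:104435942-104436241, held 0 ETS matches, as did that of *Tnc*, chr4:64046887-64047186.
Spp1: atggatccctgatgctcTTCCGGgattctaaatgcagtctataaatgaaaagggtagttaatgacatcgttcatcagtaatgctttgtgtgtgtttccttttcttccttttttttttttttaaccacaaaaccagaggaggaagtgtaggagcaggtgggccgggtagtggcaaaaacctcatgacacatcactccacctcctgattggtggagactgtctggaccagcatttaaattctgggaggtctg
Tnc: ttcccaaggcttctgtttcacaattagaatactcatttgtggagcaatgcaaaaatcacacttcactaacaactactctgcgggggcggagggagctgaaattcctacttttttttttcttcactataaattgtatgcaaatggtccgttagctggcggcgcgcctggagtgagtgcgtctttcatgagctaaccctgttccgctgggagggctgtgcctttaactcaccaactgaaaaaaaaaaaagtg
Promoter windows of 300 bases, reaching 50 bases past the start, were found for 7 of the 10 members, with none for *Thbs1*, *Fn1* and *Col1a1*. This gave 10 windows. The ETS letters were in 1 of them and in 14.9% of all 32851 promoter windows. The AP-1 letters TGANTCA, the same on both strands, were in 0 of the 10 and in 7.81% of all windows. A match is a description of the letters and was not related to the changes.

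*Spp1* stood at 18.7 and 17.8 FPKM in HG, 83.4 and 81.8 with rFGF1WT and 93.6 and 94.0 with rFGF1ΔHBS. Replicates lay close together in each group and no group overlapped another. The log2 fold change was 2.12 ± 0.048 (SE, n = 2 against 2) with rFGF1WT, with an adjusted p of 0.00102 in limma, and 2.30 ± 0.048 with rFGF1ΔHBS, with an adjusted p of 0.00107. The means were 4.52 and 5.14 times the HG mean. Its change exceeded that of 99.5% and 99.6% of all tested loci. *Spp1* was 0.18 higher on the log2 scale with rFGF1ΔHBS than with rFGF1WT, with a 95% interval of 0.05 to 0.31 for this gene alone and an adjusted p of 0.746 over all loci in limma. As a share of the summed FPKM of the 10 members, *Spp1* took 3.49% and 3.28% in HG, 12.2% and 12.6% with rFGF1WT and 13.7% and 14.1% with rFGF1ΔHBS. The sum itself was 537 and 541 FPKM in HG, 684 and 647 with rFGF1WT and 683 and 669 with rFGF1ΔHBS.

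Profiles like that of *Spp1* were searched among 10210 other named loci that were tested in the main fit and above 0 in every library. The 5 most like it over the 6 libraries were *Txnrd3*, *Etv5*, *Ccng1*, *Ccnd1* and *Mycn*. Their Euclidean distances of centred log2(FPKM + 1) were 0.319 to 0.715. *Txnrd3*, a thioredoxin reductase and the nearest, had 5.93 and 5.82 FPKM in HG, 27.9 and 24.7 with rFGF1WT and 27.1 and 26.0 with rFGF1ΔHBS. *Etv5*, an ETS transcription factor, had 0.486 and 0.578 FPKM in HG and 7.72 to 8.42 in the FGF1 libraries. Both HG values were under 1 FPKM, so *Etv5* was searched only because of its level with FGF1. *Ccnd1*, the D-type cyclin of the G1 phase, had 5.53 and 5.05 FPKM in HG and 39.1 to 42.5 in the FGF1 libraries. The 6 points share 3 group levels, so these likenesses are a description.

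*Cd44*, the cell surface receptor for hyaluronan and also for osteopontin, lies on the reverse strand at chr2:102811141-102901665. It stood at 6.12 and 11.8 FPKM in HG, 16.3 and 16.6 with rFGF1WT and 18.3 and 16.9 with rFGF1ΔHBS. Both FGF1 groups lay wholly above HG, but the HG libraries differed from each other by more than the second of them differed from rFGF1WT. The log2 fold change was 0.87 with rFGF1WT (95% interval 0.09 to 1.66, adjusted p = 0.172 in limma) and 0.96 with rFGF1ΔHBS (0.18 to 1.75, adjusted p = 0.143). Without the second HG library the values were 1.29 and 1.39, with adjusted p of 0.0283 and 0.0289 in limma. Without the first they were 0.45 and 0.54, with adjusted p of 0.119 and 0.0963, so the size of the *Cd44* change depended on which HG library was kept.

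The thrombospondins are secreted glycoproteins, of which *Thbs1* is known to activate latent TGF-β and both members to bind CD36 and CD47. *Thbs1*, on the forward strand at chr2:118111876-118127133, stood at 128 and 133 FPKM in HG, 177 and 180 with rFGF1WT and 176 and 188 with rFGF1ΔHBS. HG lay below both FGF1 groups, which overlapped each other. *Thbs1* rose by 0.45 on the log2 scale with rFGF1WT (adjusted p = 0.0245 in limma) and by 0.48 with rFGF1ΔHBS (adjusted p = 0.0225), or 1.37 and 1.39 times the HG mean. *Thbs2*, on the reverse strand at chr17:14665500-14694235, stood at 0.626 and 0.707 FPKM in HG, 0.497 and 0.442 with rFGF1WT and 0.563 and 0.503 with rFGF1ΔHBS. Its FGF1 libraries were all below HG, the opposite side from *Thbs1*, but in a fit without the filter its adjusted p was 0.325 and 0.538. The ratio of *Thbs1* to *Thbs2* was 205 and 188 in HG, 357 and 407 with rFGF1WT and 312 and 374 with rFGF1ΔHBS.

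*Fn1*, at chr1:71585520-71653200 on the reverse strand, encodes fibronectin, the adhesive glycoprotein that integrins bind and on which collagen fibrils assemble. It stood at 117 and 121 FPKM in HG, 150 and 152 with rFGF1WT and 152 and 164 with rFGF1ΔHBS. All FGF1 libraries were above HG. *Fn1* rose by 0.34 on the log2 scale with rFGF1WT (adjusted p = 0.0439 in limma) and by 0.41 with rFGF1ΔHBS (adjusted p = 0.0302), or 1.27 and 1.33 times the HG mean. *Tnc*, at chr4:63959785-64047015, encodes tenascin-C, a matricellular glycoprotein known to weaken cell adhesion to fibronectin. It stood at 51.7 and 54.1 FPKM in HG, 42.0 and 42.1 with rFGF1WT and 43.8 and 45.9 with rFGF1ΔHBS. The HG libraries were the highest and the rFGF1WT libraries the lowest. *Tnc* fell by 0.33 on the log2 scale with rFGF1WT (adjusted p = 0.0433 in limma), and its log2 fold change with rFGF1ΔHBS was -0.23 (adjusted p = 0.0783). The ratio of *Fn1* to *Tnc* was 2.25 and 2.23 in HG, 3.57 and 3.61 with rFGF1WT and 3.47 and 3.57 with rFGF1ΔHBS.

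The calls of *Thbs1*, *Fn1* and *Tnc* were close to the threshold. *Thbs1* and *Fn1* lost the call in both comparisons under 9 of 12 alternative fits, and *Tnc* lost it with rFGF1WT under 10, each fit without 1 library among them, whereas *Spp1* kept it under all 12 in both comparisons. Leaving out 1 library put the adjusted p of *Thbs1* at 0.0525 to 0.108 with rFGF1WT and 0.0637 to 0.101 with rFGF1ΔHBS. The same ranges were 0.0673 to 0.159 and 0.0735 to 0.124 for *Fn1*, and 0.0799 to 0.146 with rFGF1WT for *Tnc*. Their direction was the same in each of these fits.

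**Figure D2:**
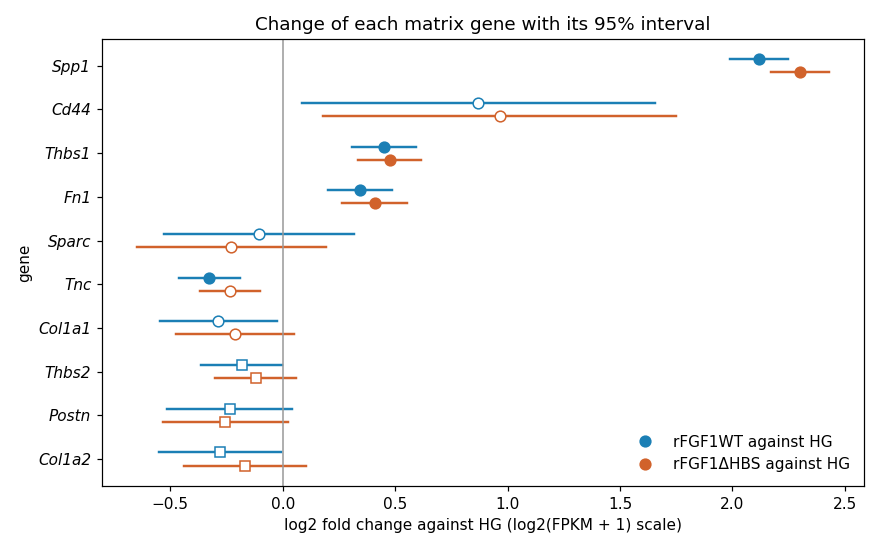
Log2 fold change of each member on the log2(FPKM + 1) scale with its 95% interval, for rFGF1WT against HG (blue) and rFGF1ΔHBS against HG (orange). Filled points have an adjusted p under 0.05, open points do not, and squares are the 3 genes under 1 FPKM, from the fit without a filter. *Spp1* is at 2.12 and 2.30, and no other member reaches 1.

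**Figure D3:**
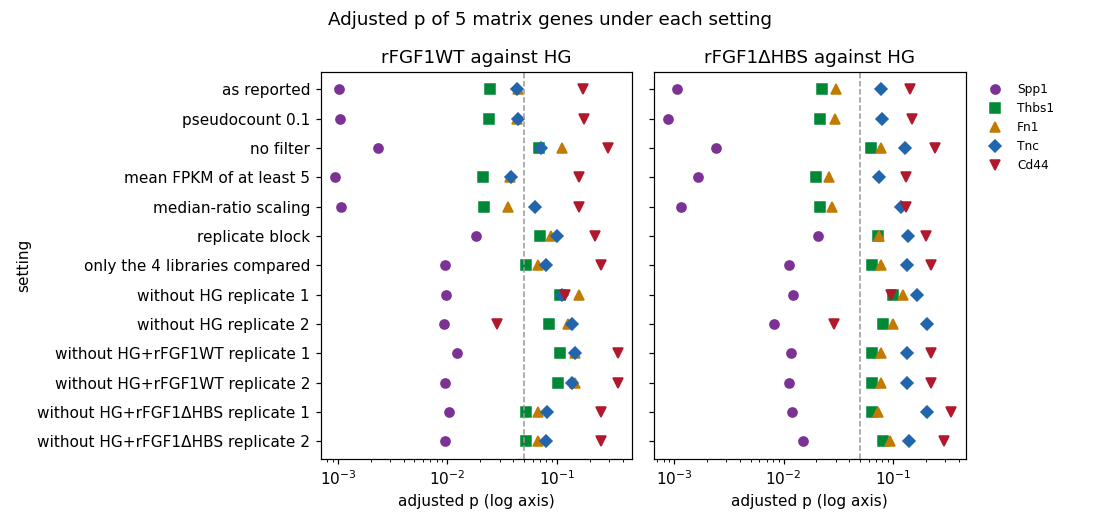
Adjusted p of *Spp1*, *Thbs1*, *Fn1*, *Tnc* and *Cd44* as reported and in 12 alternative fits, for each comparison with HG, on a log axis with a dashed line at 0.05. *Spp1* stays below the line in all of them, and *Thbs1* and *Fn1* are below it as reported but above it in 9 alternatives.

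*Sparc*, at chr11:55394500-55423183 on the reverse strand, encodes a collagen-binding glycoprotein also called osteonectin. It stood at 212 and 199 FPKM in HG, 212 and 171 with rFGF1WT and 196 and 156 with rFGF1ΔHBS. HG and rFGF1WT overlapped, and the second library of every group was the lower one. On the log2 scale its change was -0.10 with rFGF1WT (adjusted p = 0.724 in limma) and -0.23 with rFGF1ΔHBS (adjusted p = 0.437). *Sparc* took 39.4% and 36.7% of the summed FPKM of the members in HG, and 23.4% to 31.0% in the FGF1 libraries.

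*Col1a1* and *Col1a2* encode the chains of type I collagen. *Col1a1*, at chr11:94936224-94953042 on the forward strand, stood at 2.04 and 2.21 FPKM in HG, 1.41 and 1.72 with rFGF1WT and 1.70 and 1.70 with rFGF1ΔHBS. *Col1a2*, at chr6:4504814-4541544 on the forward strand, stood at 1.07 and 1.27, 0.833 and 0.741, and 0.938 and 0.921 FPKM in the same order. Both genes were highest in HG with no overlap, but neither difference passed the test. The change of *Col1a1* on the log2 scale was -0.29 with rFGF1WT (adjusted p = 0.173 in limma) and -0.21 with rFGF1ΔHBS (adjusted p = 0.278). In the fit without the filter, *Col1a2* had -0.28 (adjusted p = 0.318) and -0.17 (adjusted p = 0.579). *Postn*, at chr3:54361109-54391037 on the forward strand, encodes periostin, which binds collagen and integrins. It stood at 0.586 and 0.687 FPKM in HG, 0.475 and 0.309 with rFGF1WT and 0.286 and 0.462 with rFGF1ΔHBS. Its values were highest in HG, and in the fit without the filter its change was -0.24 with rFGF1WT (adjusted p = 0.409) and -0.25 with rFGF1ΔHBS (adjusted p = 0.371).

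Read by group, 4 of the 7 tested members lay wholly above HG with rFGF1WT (*Spp1*, *Cd44*, *Thbs1* and *Fn1*), 2 lay wholly below (*Tnc* and *Col1a1*) and *Sparc* overlapped. Of all tested loci, 24.1% lay wholly above and 34.1% wholly below. With rFGF1ΔHBS the same 4 lay above and the other 3 below, beside 24.4% and 32.9% of tested loci. The 3 untested members lay below HG with both proteins. No share was counted over loci under 1 FPKM to set beside them, so nothing is read from this.

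Against rFGF1WT, the rFGF1ΔHBS libraries gave 0 called members of 7 in limma, with 1, *Spp1*, at an unadjusted p under 0.05. Of all tested loci 0.549% were called and 4.87% had an unadjusted p under 0.05. The 95% intervals of the difference on the log2 scale were -0.12 to 0.17 for *Thbs1*, -0.08 to 0.21 for *Fn1* and -0.04 to 0.23 for *Tnc*. For *Cd44* the interval was wide, at -0.69 to 0.88. Of the 7 tested members, 4 lay wholly higher with rFGF1ΔHBS, beside 18.4% of all tested loci, and *Thbs1*, *Sparc* and *Col1a1* overlapped. The share of loci wholly lower was not counted, so no direction is read from this. A p above the threshold does not show that both proteins act alike.

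Around the members, lists of neighbouring genes were counted in the same fit. Beside each count stands the share called of all tested loci, 6.19% with rFGF1WT and 6.26% with rFGF1ΔHBS. The lists were chosen with earlier results known, so no inference is drawn from their counts. Of 25 other matricellular genes, 10 were tested, 2 were called higher with each protein and none lower. *Ccn1*, a secreted ligand of integrins, had 49.0 and 50.4 FPKM in HG, 110 and 120 with rFGF1WT and 111 and 118 with rFGF1ΔHBS. It rose by 1.19 on the log2 scale in both comparisons, with an adjusted p of 0.00661 and 0.00764 in limma. *Mgp*, an inhibitor of calcification, had 0.737 and 0.880 FPKM in HG and 1.81 to 2.40 in the FGF1 libraries, with log2 differences of 0.89 (adjusted p = 0.0208) and 0.70 (adjusted p = 0.0323). Both HG values were under 1 FPKM, so *Mgp* was tested only because of its level with FGF1, and without the filter its adjusted p was 0.0579 and 0.0889. *Ccn2*, named here after its values were seen, had 8.68 and 15.9 FPKM in HG and 30.3 to 57.3 in the FGF1 libraries, with an adjusted p of 0.126 and 0.0980. The median log2 fold change of the list was 0.12 and 0.05, and that of all tested loci -0.04 in both comparisons. *Efemp2*, an elastic fibre protein, had 64.0 to 71.1 FPKM in all libraries.

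Among 18 other fibrillar and associated collagens, 7 were tested and 1 rose. *Col8a1*, a short-chain collagen, rose from 39.2 and 39.2 FPKM in HG to 64.9 and 62.2 with rFGF1WT and 63.4 and 64.1 with rFGF1ΔHBS, by 0.68 (adjusted p = 0.0114 in limma) and 0.69 (adjusted p = 0.0115) on the log2 scale. *Col6a1*, the chain of a microfibrillar collagen, had 82.0 and 83.2 FPKM in HG and 50.6 to 81.2 in the FGF1 libraries, with the low value in the first rFGF1ΔHBS library. Of 24 collagen processing and crosslinking genes, 17 were tested and 1 fell. *P4ha2*, a prolyl hydroxylase subunit that acts on procollagen, fell from 8.08 and 8.90 FPKM to 5.20 to 5.87, by 0.57 (adjusted p = 0.0323) and 0.50 (adjusted p = 0.0413). It lost the call under 9 of 12 alternatives with either protein, and *Col8a1* under 2 with rFGF1WT and 5 with rFGF1ΔHBS. *Serpinh1*, the collagen chaperone, had 141 and 148 FPKM in HG, 233 and 231 with rFGF1WT and 213 and 157 with rFGF1ΔHBS, and was not called (adjusted p = 0.0876 and 0.272). The medians were 0.06 and 0.04 for the collagens, and 0.04 and 0.01 for the processing genes.

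Of 24 receptors that bind the members, 23 were in the table and 16 were tested. With each protein 3 rose and 1 fell, and the list median was -0.04 and -0.09. *Itga3*, a subunit of the laminin-binding integrin of podocytes, rose from 65.1 and 64.2 FPKM in HG to 154 and 153 with rFGF1WT and 146 and 160 with rFGF1ΔHBS. *Itga3* rose by 1.23 on the log2 scale in both comparisons, with an adjusted p of 0.00484 and 0.00510 in limma. *Sdc4*, a heparan sulfate proteoglycan of focal adhesions, had 77.5 and 84.0 FPKM in HG and 114 to 123 in the FGF1 libraries. *Itgb1*, the common β subunit, had 193 and 187 FPKM in HG and 224 to 237. *Sdc4* rose by 0.55 with both proteins (adjusted p = 0.0291 and 0.0302 in limma), and *Itgb1* by 0.30 and 0.26 (adjusted p = 0.0404 and 0.0494). *Ddr1*, a receptor tyrosine kinase for collagen, fell from 36.8 and 33.0 FPKM to 15.8 to 19.6, by 1.04 (adjusted p = 0.0235) and 0.95 (adjusted p = 0.0280). *Itga3* was called under all 12 alternatives with both proteins, whereas *Sdc4* and *Itgb1* lost the call under 9 with either protein and *Ddr1* under 5 with rFGF1WT and 9 with rFGF1ΔHBS. *Calr*, a chaperone, had 143 to 165 FPKM in all libraries. In the hyaluronan axis around *Cd44*, 7 of 15 genes were tested and limma called 0, with medians of -0.02 and 0.09. An unadjusted p under 0.05 was found for 2 and 1 of the 7, beside 2616 and 2632 of all 10562 tested loci. *Ezr* and *Msn*, which link CD44 to actin, had 117 to 128 and 54.0 to 74.4 FPKM over all libraries. Between rFGF1ΔHBS and rFGF1WT, limma called 0 genes in each of these 5 lists.

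**Figure D4:**
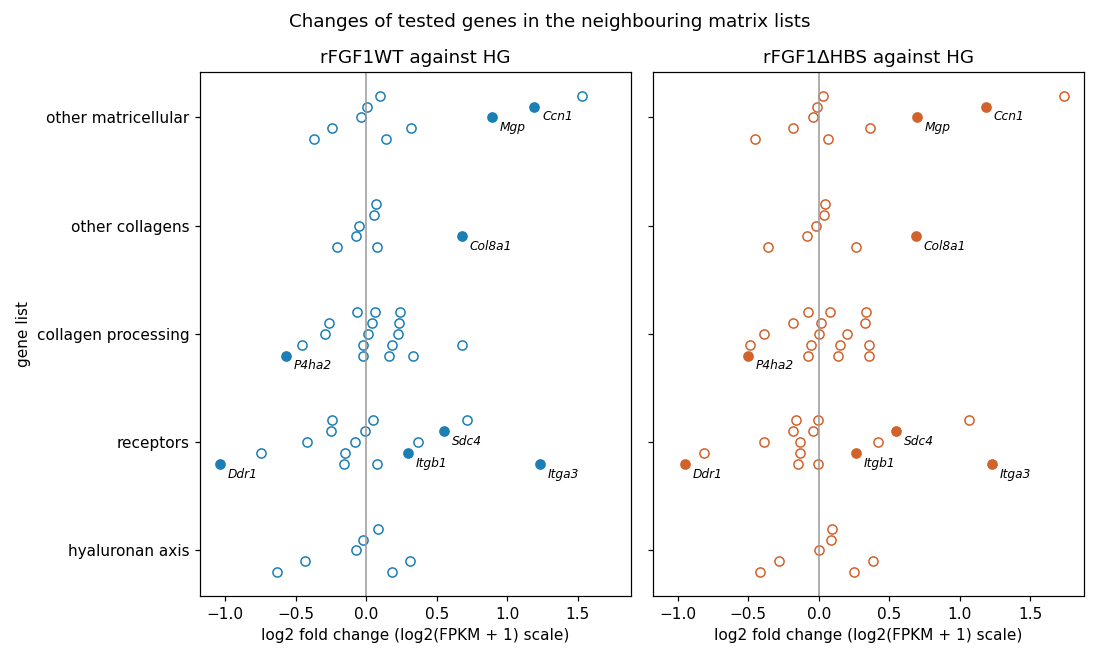
Log2 fold change of each tested gene in the 5 neighbouring lists, on the log2(FPKM + 1) scale, for each comparison with HG. Filled and named points have an adjusted p under 0.05. *Itga3*, *Ccn1*, *Mgp*, *Col8a1*, *Sdc4* and *Itgb1* are on the right, *P4ha2* and *Ddr1* on the left, and most other genes lie near 0.

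The KEGG pathway of matrix and receptor interaction, looked up in the table after values were seen, annotates 79 loci including 8 of the members. Of its 39 tested loci, 6 were called higher and 2 lower with rFGF1WT, and 6 higher and 1 lower with rFGF1ΔHBS. Of all tested loci, 3.26% were called higher and 2.94% lower with rFGF1WT, and 3.37% and 2.89% with rFGF1ΔHBS. The called genes include members chosen with results known, so no inference is drawn from these counts. The genes that rose were *Spp1*, *Thbs1*, *Fn1*, *Itgb1*, *Itga3* and *Sdc4* in both. *Lama1*, a laminin chain, fell in both, by 0.72 and 0.68 on the log2 scale, and *Tnc* fell with rFGF1WT. The call of *Lama1* was not followed under the alternatives.

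The labelled cell type was checked against its markers. Of 15 podocyte markers, 14 were in the table and 7 had a mean of at least 1 FPKM. The defining genes *Wt1* and *Nphs1*, picked from this list, were low, with *Wt1* at 0.0104 to 0.0731 FPKM and *Nphs1* at 0.618 to 0.942 FPKM. The markers summed to 222 to 229 FPKM in HG and 297 to 315 in the FGF1 libraries. *Actn4* and *Nes* had the highest means and weigh most in these sums. With rFGF1WT and rFGF1ΔHBS the log2 fold changes were 0.27 and 0.28 for *Actn4*, and 0.89 and 0.97 for *Nes*. Of the 7 tested markers, 5 were above 0 and 2 below in each comparison. *Nes* and *Kirrel* were called with rFGF1WT and *Nes* with rFGF1ΔHBS, although *Kirrel* lost the call under 9 of 12 alternatives. Fibroblast and mesangial markers summed to 45.4 to 50.4 FPKM in all libraries, endothelial markers to 3.17 to 5.96 and macrophage markers to 69.9 to 82.6, whereas tubule markers summed to 158 and 159 in HG and 109 to 122 with FGF1. Of the 3 tested tubule markers limma called 0 in either comparison, and all 3 had an unadjusted p under 0.05 in both. The same held for all 4 tested fibroblast and mesangial markers, of which 3 were higher and 1 lower. Their level sum therefore does not show that each marker was level. Of all 10562 tested loci, 2616 and 2632 had an unadjusted p under 0.05 against HG, and 6.19% and 6.26% were called. Of the macrophage markers *Cd68* was called higher and *Csf1r* lower in both comparisons. *Cd68* lost the call under 9 of 12 alternatives in both, and *Csf1r* under 2 with rFGF1WT and 5 with rFGF1ΔHBS. The part of these markers in the changes of the members was not tested, and in bulk samples fewer cells of a type and less RNA per cell cannot be told apart.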

How the data were processed

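RNA-Seq was made from poly(A) RNA of 6 libraries, and the authors deposited 1 table of FPKM per locus. Per the labels, Bowtie 0.12.2, HISAT2 2.0 and StringTie 1.3.0 were named in the submitters' processing notes with build mm8, without their roles, and the study's methods credit the FPKM summary to edgeR. The deposited table has no coordinates. Positions are those of GENCODE M21 (GRCm38), which held 78602 of the 78903 Ensembl transcripts in the table, and promoters those of RefSeq (GRCm38.p6). Strand use in counting is not given in the sources used here, so genes overlapping *Cd44*, *Thbs1*, *Tnc*, *Fn1* and *Col1a2* may share fragments with them.

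From the FPKM, log2(FPKM + 1) of all 6 libraries was tested in limma (version 3.58.1, R 4.3.3), using linear models, contrasts and trended empirical Bayes moderation, over 10562 loci with a mean of at least 1 FPKM. Adjustment was by Benjamini-Hochberg over all tested loci, with 3 residual degrees of freedom. An exact permutation test of 2 against 2 libraries cannot go below p = 0.333 and was not used. Depth is unknown, and its relative value was read from steps of low values. Of these values 23.5% to 25.1% lay within 0.02 of a whole step, where even spacing would give 4.0%. The step was the most frequent of these same values within a narrow set range. Some excess over 4.0% is therefore built in, and the relative depth could not leave the limits of that range. Plots were drawn with matplotlib 3.10.9, and tables with pandas 2.3.3 and numpy 2.4.6 under Python 3.11.15.

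The members and lists were chosen with earlier results of these data known. The naming rule took the members, up to 4 called genes of each list by adjusted p, its 2 genes of highest mean, and the 5 profiles nearest *Spp1*. The genes of highest mean in the fibroblast and mesangial, endothelial and tubule lists were followed under the alternatives but are not described. *Ccn2*, *Lama1* and the KEGG pathway were added after values were seen, and *Wt1* and *Nphs1* were picked from the podocyte markers outside the naming rule. The 12 alternatives were a pseudocount of 0.1, no filter, a mean of at least 5 FPKM, median-ratio scaling, a replicate block, only the 4 libraries compared, and leaving out each of the 6 libraries. The paper's animal, protein and PCR experiments are not analysed here. The result of 1 other gene is not given.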

Additional observations from a re-analysis of the deposited data

How the results depend on the processing

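*Spp1* passed the threshold with both proteins under all 12 alternatives, with adjusted p of 0.0009 to 0.0183 for rFGF1WT and 0.0009 to 0.0208 for rFGF1ΔHBS in limma. The number of called members, 4 with rFGF1WT and 3 with rFGF1ΔHBS, was 1 and 1 without the filter, with only the 4 libraries compared and with the replicate block, and 1 to 2 and 1 to 2 when a library was left out. The called loci, 654 and 661 in the main fit, were 407 and 386 without the filter, 170 and 189 with only the libraries compared and 41 and 39 with the block, and 134 to 195 and 118 to 198 without 1 library. Between rFGF1ΔHBS and rFGF1WT, 0 members were called under each alternative, and the called loci, 58 in the main fit, were 31 at a mean of at least 5 FPKM, 6 with the block and 43 to 107 without 1 library. Fewer libraries leave fewer degrees of freedom, and no filter adds loci to adjust over and also changes the estimated spread. With rFGF1WT the SE went from 0.053 to 0.064 for *Thbs1* and from 0.054 to 0.062 for *Fn1* without the filter. For *Tnc* the SE went from 0.050 to 0.047 and the unadjusted p in limma from 0.00217 to 0.00178, whereas the adjusted p went from 0.0433 to 0.0720. The part of each in the lost calls was not tested. The labels do not say whether same-numbered libraries are paired. Deviations of same-numbered libraries correlated at -0.021, 0.098 and -0.047, which cannot show that pairing was absent, so the block is kept as an alternative. *Cd44* passed with adjusted p of 0.0283 and 0.0289 without HG replicate 2, where its log2 fold change was 1.29 and 1.39, but had 0.45 and 0.54 without HG replicate 1. Directions reversed only when a library was left out. *Sparc* with rFGF1WT had -0.26 to 0.049, *Efemp2* with rFGF1ΔHBS -0.0093 to 0.14 and *Cd14*, a monocyte marker, with rFGF1ΔHBS -0.94 to 0.26, with 0.039 without HG replicate 2. Between rFGF1ΔHBS and rFGF1WT, *Thbs1* had -0.024 to 0.076, *Sparc* -0.28 to 0.037, with 0.028 without rFGF1WT replicate 1, and *Col1a1* -0.010 to 0.16. None of these was called, and the cause was not tested. For members, 196 values kept direction and side of the threshold, 46 lost it, 2 gained it and 5 reversed. For the other named genes these numbers were 506, 127, 6 and 3. With 2 libraries per group, changes near the threshold, such as those of *Thbs1*, *Fn1* and *Tnc*, rest on the pooled spread.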
